A study of Mus musculus with 22 samples.

Results

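Fatty acid oxidation genes were followed in mouse chondrocytes and cartilage with and without the maintenance DNA methyltransferase gene Dnmt1. The set holds 35 genes chosen by symbol: acyl-CoA synthetases, the carnitine shuttle, the enzymes of mitochondrial β-oxidation, 3 peroxisomal enzymes and 2 nuclear receptors. All 35 were found among the 34866 identifiers of each culture table, and 34 among the 23911 of the cartilage table, which does not list Cpt1b. The control cultures carried a floxed Dnmt1, and the conditional knockout (cKO) cultures were Prrx1-Cre;Dnmt1 flox/flox. Primary chondrocytes of knee articular cartilage from pups of postnatal day 3 to 5 were sampled at day 0 (3 control and 3 cKO cultures) and after 3 days of bone morphogenetic protein 2 (BMP2), labelled as 100 ng/µl (4 and 4 cultures). Cartilage of mice at postnatal day 5, treated with collagenase against connective tissue, gave 4 samples labelled flox and 4 labelled cKO, each with 2 males and 2 females. Prrx1-Cre is active in the early limb mesenchyme, so the deletion is not limited to chondrocytes. The number of animals behind a sample was not given.

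β-oxidation breaks fatty acids into acetyl-CoA inside mitochondria. A fatty acid is first joined to coenzyme A, then carried across the inner membrane as an acylcarnitine, with carnitine palmitoyltransferase 1 as the entry step that malonyl-CoA inhibits. Each turn of the cycle then runs through an acyl-CoA dehydrogenase, a hydratase, a 3-hydroxyacyl-CoA dehydrogenase and a thiolase, and electrons from the first step reach the respiratory chain through the electron transfer flavoprotein. Chondrocytes live in tissue without vessels and are known to rely largely on glycolysis.

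Dnmt1 copies methylation onto CG pairs of newly made DNA, so the CG pairs at the starts of 4 genes described below with changes on both days (Cpt1a, Acadl, Hadh and Echs1), and between Hadha and Hadhb, are shown first. The windows come from RefSeq (GRCm38.p6), and 30 of the 35 symbols matched (all but Cpt1b, Crat, Acad9, Acaa2 and Decr1), with 31 windows in all. Methylation itself was not measured in these data. Cpt1a and Acadl were higher in cKO cultures and Hadh and Echs1 were lower, and Hadha and Hadhb, the α and β subunits of the trifunctional protein, lie head to head with starts 86 bases apart. The bases before each start that lie in no exon of the gene (GENCODE M21) are printed in the direction of transcription, with each CG in capitals, and the stretch between Hadha and Hadhb in the direction of Hadhb.
Cpt1a, chr19:3323051-3323284, plus strand, in an intron of the longer transcripts: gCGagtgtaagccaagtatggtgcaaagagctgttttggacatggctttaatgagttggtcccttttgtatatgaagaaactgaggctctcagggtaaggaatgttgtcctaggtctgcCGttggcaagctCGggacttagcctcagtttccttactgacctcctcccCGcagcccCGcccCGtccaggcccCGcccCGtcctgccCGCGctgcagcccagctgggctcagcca
Acadl, chr1:66863310-66863559, minus strand, before the gene: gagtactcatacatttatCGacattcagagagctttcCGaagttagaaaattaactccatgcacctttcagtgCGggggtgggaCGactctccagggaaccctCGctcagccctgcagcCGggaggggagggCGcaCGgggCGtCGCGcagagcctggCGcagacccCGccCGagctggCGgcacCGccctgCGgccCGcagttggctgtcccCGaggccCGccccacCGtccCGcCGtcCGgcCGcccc
Hadh, chr3:131272102-131272351, minus strand, before the gene: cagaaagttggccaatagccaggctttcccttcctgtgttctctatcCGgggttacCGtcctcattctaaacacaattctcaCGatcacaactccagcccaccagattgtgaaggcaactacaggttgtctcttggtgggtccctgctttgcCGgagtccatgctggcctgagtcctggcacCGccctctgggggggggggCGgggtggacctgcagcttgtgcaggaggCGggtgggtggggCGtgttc
Echs1, chr7:140116477-140116671, minus strand, before the gene: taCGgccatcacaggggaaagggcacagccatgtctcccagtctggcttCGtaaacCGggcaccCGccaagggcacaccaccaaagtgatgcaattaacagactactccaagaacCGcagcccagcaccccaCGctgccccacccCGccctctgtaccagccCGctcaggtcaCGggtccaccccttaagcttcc
Hadha and Hadhb, chr5:30155163-30155247, between the genes: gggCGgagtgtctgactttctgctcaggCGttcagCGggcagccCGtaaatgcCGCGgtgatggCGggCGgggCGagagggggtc

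The stretch before Acadl held 25 CG pairs in 250 bases, and the stretch before Hadh held 8 in 250. Over whole windows of 300 bases (250 before and 50 after the start), the ratio of observed to expected CG was 0.76 for Cpt1a, 0.93 for Acadl, 0.57 for Hadh and 0.68 for Echs1. Its median was 0.70 over the members' windows and 0.38 over all 32851 windows of the table. A window was counted as CG-rich with a ratio of at least 0.6 and at least 50% G and C, which held for 18 of 31 member windows (58.1%) and for 33.5% of all windows. Cpt1a, Acadl and Echs1 were in the CG-rich class and Hadh was not. Whether CG content goes with the direction of change in cKO cultures was not tested. The letters AGGTCA, the core element of many nuclear receptors, were searched on both strands and occurred in 5 member windows (Cpt1a, Cpt1c, Acadm, Acadvl and Echs1), or 16.1%, against 16.3% of all windows. Repeats of AGGTCA in the same direction with 1 base between them, the form bound by PPARs with RXR, occurred in 0 member windows and in 0.0396% of all. TNAAGGTCA, the element of estrogen-related receptors, which contains AGGTCA, occurred in 0 member windows and in 1.3% of all. These counts describe letters in these windows only.

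Libraries of day 0 held 41749327 to 51741478 counts, those of day 3 14434197 to 18918714 and those of cartilage 1100198 to 1888896. A level of 3 counts or fewer, taken as the floor, was at most 0.0721 CPM (counts scaled to the same total in every library) at day 0, 0.206 at day 3 and 2.75 in cartilage, and it covers counting error only. Dnmt1 itself was lower in all 3 settings, by log2 fold changes of -2.44, -1.41 and -1.66, with no overlap between the groups. The cKO libraries at day 3 correlated less with one another (the lowest was 0.9314, between replicates 3 and 4) than the control libraries of that day (0.979 or more), and cKO replicate 4 stood apart in several members. Chondrocyte markers were present in every group but moved with genotype: 8 of 8 were lower in cKO cultures on both days, and at day 0 their summed level was 136000 to 144000 CPM in control cultures, against 48800 to 59600 CPM in cKO cultures. At day 3 this sum was 85900 to 107000 CPM in control cultures and 1130 to 15900 in cKO cultures, with 1130 in replicate 4. Skeletal muscle markers summed to 3.36 to 4.44 CPM in control and 160 to 1950 CPM in cKO cultures at day 3, where 8 of 9 were higher. The 160 CPM again belonged to replicate 4. At day 0 the muscle sums were 8.98 to 9.74 and 44.5 to 56.4 CPM, where 4 of 9 were higher. Of 7 adipocyte markers, Pparg and Fabp4 were higher on both days, while Adipoq, Lep, Cidec and Cfd were at the floor in every library of day 0 and every control library of day 3. In day 3 cKO cultures Adipoq was at 0.173 to 1.63 CPM, Cidec at 0.0494 to 0.619 and Plin1 at 0.574 to 1.8. Each was above all control libraries but too low to be tested. Of these 4 cKO libraries, Cidec and Cfd were at the floor in 3, Adipoq in 1 and Lep in all 4. The adipocyte sum was 7.74 to 9.26 CPM in control and 18.9 to 21.6 CPM in cKO cultures of day 0, and 14 to 21.6 and 46.8 to 68.7 CPM in those of day 3. Of 6 macrophage markers, Cd68, Csf1r and Cd14 were higher on both days and Ptprc at day 0, with Adgre1 and C1qa at the floor, and their sum was 2.19 to 2.28 CPM in control and 5.9 to 6.18 CPM in cKO cultures of day 0, and 1.38 to 2.81 and 8.61 to 15 CPM in those of day 3. Fibroblast and tendon markers summed to 3160 to 4720 CPM in control and 2330 to 2620 CPM in cKO cultures of day 0, and to 6570 to 8250 and 9000 to 9830 CPM at day 3. In cartilage the chondrocyte sum was 61800 to 93300 CPM in control and 28100 to 57100 in cKO samples. Only Matn1 and Hapln1 of the 8 markers were called lower there. The cartilage muscle sum was 10.1 to 13.7 and 14.6 to 57.7 CPM, and Des, the only muscle marker tested there, was higher (1.44, adjusted p = 0.0241). In the same samples the osteoclast sum was 126 to 457 and 58.8 to 119, and the erythroid sum was 166 to 916 and 13.4 to 389, with 4 of 6 erythroid markers lower. The part of these markers in the members' results was not tested.

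Loss of Dnmt1 went with changes in both directions among the fatty acid oxidation genes in culture. At day 0, 26 of 35 members were called (adjusted p under 0.05), 10 higher and 16 lower in cKO. Of all 15530 genes tested on that day 64.5% were called, 33.0% higher and 31.6% lower, so a count of this size (74.3% of members) lies near what genes in general showed. At day 3, 22 of 35 were called (62.9%), 11 in each direction, where 48.1% of 13924 genes were called, 25.5% higher and 22.6% lower. Without cKO replicate 4 of day 3 the count was 23, 11 higher and 12 lower, with all 22 among them. The members' median log2 fold change was -0.07 at day 0 and -0.01 at day 3, beside 0.01 over all genes on both days. All 26 calls of day 0 and 20 of the 22 of day 3 had no overlap between the libraries of the 2 genotypes. The same share over all called genes was not computed, so this is not shown to be particular to the members. With all 14 cultures in 1 fit, 18 members were called at day 0 and 24 at day 3, and the day 0 calls of Acadvl, Hadha, Acaa2, Decr1, Etfa, Etfb, Etfdh and Acsl5 were lost. In cartilage 24 members could be tested (all but Cpt1b, Cpt1c, Slc22a5, Acads, Acadvl, Acad9, Acad10, Acad11, Acox3, Ehhadh and Ppara) and 2 were called, Hadh lower and Etfa higher, where 6.19% of 8793 genes were called, 3.15% higher and 3.04% lower, so 2 of 24 lies near that share. The members' median in cartilage was -0.09, beside 0.01 for all genes. These bulk measurements cannot tell fewer cells of a type from less RNA per cell, and the p-values measure the spread between samples labelled as biological replicates in the cultures and as replicates in cartilage.

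Genotype effects at day 0 and day 3 come from separate libraries. Of the 35 members, 7 were higher on both days (Acads, Acadl, Acadvl, Acsl5, Cpt1a, Etfdh and Slc25a20) and 9 were lower on both (Acaa1a, Acad10, Acad11, Acsl1, Echs1, Eci1, Ehhadh, Etfb and Hadh). Acaa2 was higher at day 0 and lower at day 3, and Acsl3 did the opposite. Of the rest, 3 were higher and 1 was lower at day 3 only by call, 2 were higher and 6 were lower at day 0 only by call, and 5 were called on neither day (Cpt2, Crat, Acad9, Acox3 and Ppara). By role, the 7 higher genes were 3 acyl-CoA dehydrogenases, 2 of the carnitine shuttle, 1 synthetase and Etfdh. The 9 lower genes were 2 acyl-CoA dehydrogenases, 2 of the later steps, 2 peroxisomal enzymes, 1 synthetase, Eci1 and Etfb. The share of all genes called the same way on both days was not computed. With 64.5% of all genes called at day 0 and 48.1% at day 3, these counts, and those by role below, are descriptions only.

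**Figure D1:**
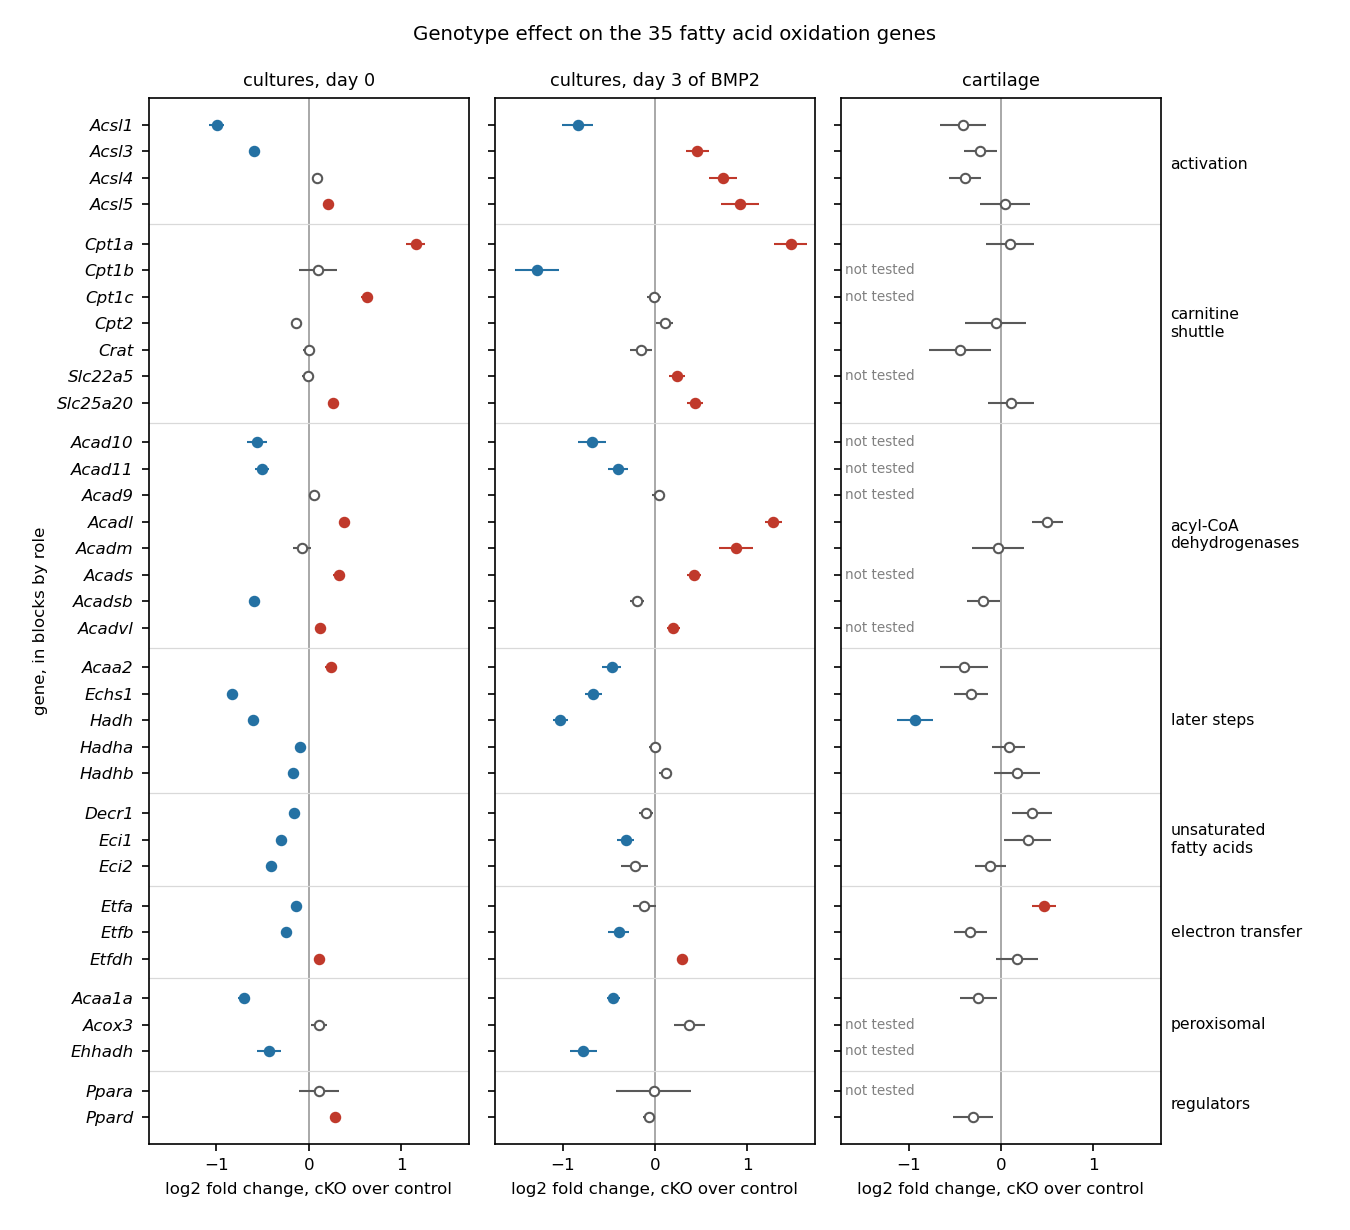
Log2 fold change of cKO over control for the 35 fatty acid oxidation genes (rows, in blocks by role) in cultures at day 0, cultures at day 3 of BMP2 and cartilage, with bars of 1 SE. Filled red points were called higher, filled blue points lower and open points not called, and Cpt1a stands at 1.16 and 1.47 in the cultures and at 0.10 in cartilage while Hadh lies below 0 in all 3 panels. Members without a test in cartilage are marked as not tested.

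From day 0 to day 3 more members rose than fell in each genotype. In control cultures 26 of 35 were called, 20 higher and 6 lower at day 3, where 56.9% of 14909 genes were called, 28.1% higher and 28.8% lower. For cKO cultures the count was 21 of 35, 17 higher and 4 lower, where 62.2% of genes were called, 32.4% higher and 29.8% lower. The members' median log2 change was 0.28 in control and 0.25 in cKO cultures, beside 0.00 and 0.02 over all genes. Without cKO replicate 4 of day 3, which also enters the common estimate of the spread, 31 members were called in control cultures, 21 higher and 10 lower. Day, BMP2 and the count table changed together, so their effects cannot be told apart. The genotype effect itself differed between the days in 11 of 35 members by the interaction test, 6 with a higher and 5 with a lower value at day 3, where 16.8% of 14909 genes were called, 9.94% higher and 6.89% lower. Without cKO replicate 4 of day 3 the interaction was called in 14 members.

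**Figure D2:**
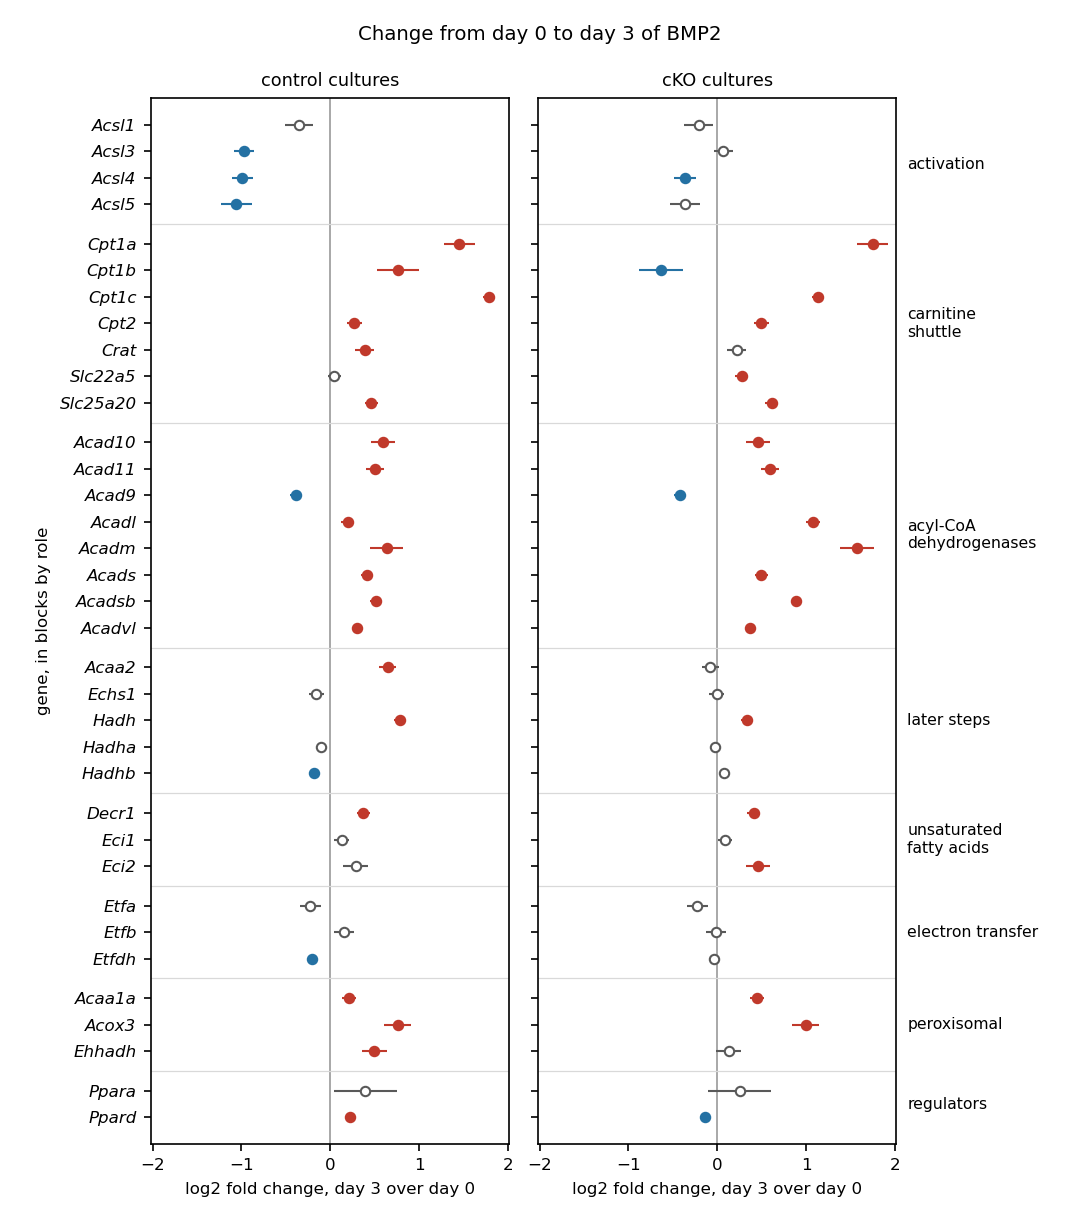
Log2 fold change of day 3 over day 0 for the 35 fatty acid oxidation genes (rows, in blocks by role) in control and in cKO cultures, with bars of 1 SE and the same meaning of colours and fills. The carnitine shuttle and the acyl-CoA dehydrogenases lie mostly to the right of 0 in both genotypes, while Acsl3 stands at -0.97 in control and 0.07 in cKO cultures.

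Acyl-CoA synthetases activate fatty acids by joining them to coenzyme A, and the 4 long-chain members split by genotype. Acsl1, the form tied to oxidation in muscle and fat, measured 64.2, 59.8 and 61.1 CPM in control and 32.0, 34.0 and 27.0 CPM in cKO cultures at day 0. At day 3 Acsl1 stood at 55.5, 48.8, 39.5 and 49.5 CPM in control and 30.3, 28.8, 30.4 and 17.8 CPM in cKO cultures. Every cKO library lay below every control library on both days, and the fall was 2-fold at day 0 and 1.79-fold at day 3, with log2 fold changes of -0.999 (SE 0.078, adjusted p = 4.93e-06) and -0.84 (SE 0.17, adjusted p = 0.00413). Acsl1 in replicate 4 of the day 3 cKO cultures (17.8 CPM) was far below the other 3, and the log2 fold change without it was -0.70 (adjusted p = 4.52e-04).

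Acsl3, found on the endoplasmic reticulum and lipid droplets, reversed with time. Its levels at day 0 were 45.7, 45.4 and 47.6 CPM in control and 30.4, 29.4 and 32.3 CPM in cKO cultures, without overlap. At day 3 they were 26.7, 24.2, 19.9 and 23.6 CPM and 32.1, 37.3, 33.5 and 25.9 CPM, and the lowest cKO library lay just below the highest control library. The log2 fold change turned from -0.59 (SE 0.047, adjusted p = 5.55e-06) to 0.46 (SE 0.12, adjusted p = 0.0134), an interaction of 1.04 (SE 0.16, adjusted p = 0.00104). Behind this stood a change from day 0 to day 3 of -0.97 (SE 0.11) in control cultures and of 0.07 (SE 0.11), which was not called, in cKO cultures.

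Acsl4, which prefers arachidonic acid, was measured at day 0 at 34.0, 32.4 and 33.2 CPM in control and 36.1, 34.6 and 35.5 CPM in cKO cultures. All 3 cKO values were above all 3 control values, yet the log2 difference of 0.09 (SE 0.042) was not called (adjusted p = 0.0922). For day 3 the values were 20.02, 15.0, 14.5 and 17.5 CPM in control and 24.0, 26.9, 25.1 and 34.1 CPM in cKO cultures, without overlap and with a log2 fold change of 0.74 (SE 0.15, adjusted p = 0.00409). From day 0 to day 3 control cultures changed in Acsl4 by -0.99 on the log2 scale, and cKO cultures by -0.36. The interaction of 0.63 (SE 0.17, adjusted p = 0.0258) was called in 7 of 14 fits with 1 library left out: it was lost without any 1 of the 6 day 0 libraries or control replicate 2 of day 3, with an adjusted p of up to 0.0652.

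Acsl5, a form of the mitochondrial outer membrane and the endoplasmic reticulum, was higher in cKO on both days. Day 0 gave 65.1, 62.5 and 61.5 CPM in control and 71.8, 76.8 and 71.0 CPM in cKO cultures. By day 3 control cultures measured 34.7, 28.5, 28.6 and 29.4 CPM and cKO cultures 42.9, 52.3, 49.0 and 83.1 CPM, of which 83.1 belongs to replicate 4. Neither day showed overlap, and the log2 fold changes were 0.21 (SE 0.042, adjusted p = 0.00165) and 0.93 (SE 0.20, adjusted p = 0.00597), the latter 0.67 without replicate 4. The interaction was not called with all libraries (0.69, adjusted p = 0.0689) and was called without replicate 4 (0.45, adjusted p = 0.0084). In cartilage the 4 synthetases showed log2 differences from -0.41 (Acsl1) to 0.04 (Acsl5), with adjusted p of 0.199 to 0.939.

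**Figure D3:**
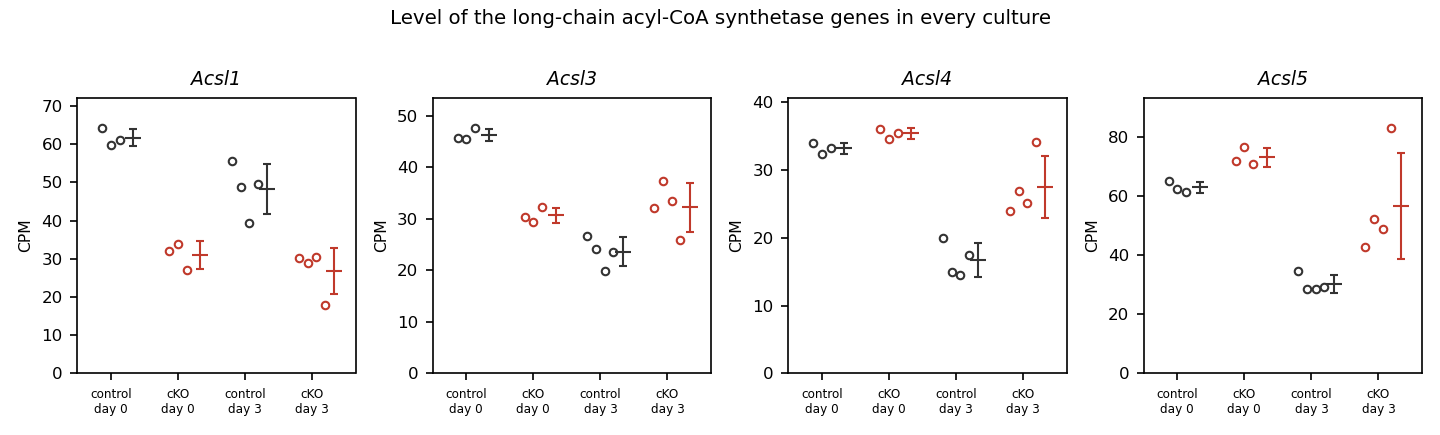
CPM of Acsl1, Acsl3, Acsl4 and Acsl5 (y axes, each from 0) in every culture, control in black and cKO in red, with the mean and SD of each group to the right of its points. Acsl3 lies lower in cKO at day 0 and mostly higher at day 3, and replicate 4 of the day 3 cKO cultures is the lowest of its group for Acsl1 and Acsl3 and the highest for Acsl4 and Acsl5.

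Among the 7 genes of the carnitine shuttle, 3 were higher in cKO at day 0 (Cpt1a, Cpt1c and Slc25a20). At day 3 Cpt1a, Slc25a20 and Slc22a5 were higher and 1 was lower (Cpt1b). Over all genes, 33.0% were higher at day 0 and 25.5% at day 3. The 3 isoforms of the entry enzyme behaved differently. Cpt1a, the liver isoform and the common one outside muscle and brain, measured 9.40, 8.24 and 7.65 CPM in control and 17.4, 17.7 and 21.5 CPM in cKO cultures at day 0. Its day 3 level was 19.0, 23.4, 31.9 and 17.9 CPM in control and 68.0, 61.1, 56.9 and 67.6 CPM in cKO cultures. The lowest cKO library lay above the highest control library on both days. Expressed as folds, Cpt1a was 2.23-fold higher at day 0 and 2.78-fold higher at day 3, with log2 fold changes of 1.16 (SE 0.11, adjusted p = 1.29e-05) and 1.47 (SE 0.18, adjusted p = 3.14e-04).

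Cpt1a also rose with time, by 1.45 (SE 0.18) on the log2 scale in control and 1.75 (SE 0.17) in cKO cultures, and the interaction was not called (0.29 (SE 0.24, adjusted p = 0.438)). In cartilage Cpt1a measured 13.5, 17.9, 11.01 and 15.4 CPM in control and 12.6, 16.6, 20.5 and 12.9 CPM in cKO samples, and these groups overlapped. The log2 difference in cartilage was 0.10 (SE 0.26, adjusted p = 0.856), against more than 1 in both culture comparisons. Whether the effect differs between cultures and cartilage was not tested, since their library types and count tables differ.

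Cpt1b, the muscle isoform, was the least abundant of the 3 per kilobase of exon in every culture group. Its levels were 1.62, 1.67 and 2.43 CPM in control and 2.35, 2.11 and 1.67 CPM in cKO cultures at day 0, with full overlap. At day 3 they were 3.43, 3.85, 2.34 and 3.30 CPM and 1.63, 1.48, 0.939 and 1.21 CPM, every cKO library below every control library. The log2 fold change was 0.10 (SE 0.20, adjusted p = 0.698) at day 0 and -1.28 (SE 0.24, adjusted p = 0.0028) at day 3, and the interaction was -1.40 (SE 0.34, adjusted p = 0.0146). Cpt1b rose with time in control cultures (0.76 (SE 0.24)) and fell in cKO cultures (-0.63 (SE 0.24)). The fall in cKO cultures lost its call without cKO replicate 1 or 2 of day 0, or replicate 3 or 4 of day 3 (adjusted p up to 0.127), or without the expression filter. The rise in control cultures lost its call without control replicate 1 or 2 of day 0 (adjusted p up to 0.0677). This muscle isoform was lower in the same day 3 cKO libraries in which 8 of 9 muscle markers were higher. A relation between these results was not tested. Of its exon bases 81.4% are shared with Gm44502, a gene on the same strand, and the authors' counting could have split reads between the pair.

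Cpt1c, the brain isoform, which has little transferase activity, had the largest rise with time of any member in control cultures. Control cultures held 15.4, 14.8 and 15.3 CPM at day 0 and 53.1, 50.3, 54.6 and 51.7 CPM at day 3. The cKO cultures held 23.1, 22.4 and 24.9 CPM and 48.3, 51.2, 49.2 and 57.3 CPM. The genotypes were apart at day 0 and overlapped at day 3, with log2 fold changes of 0.63 (SE 0.056, adjusted p = 1.09e-05) and -0.01 (SE 0.077, adjusted p = 0.937). The change with time was 1.79 in control and 1.13 in cKO cultures, and the interaction was -0.66 (SE 0.092, adjusted p = 6.56e-04).

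Slc25a20, the carrier that exchanges acylcarnitine for carnitine across the inner membrane, measured 15.9, 15.4 and 14.5 CPM in control and 18.0, 18.5 and 18.6 CPM in cKO cultures at day 0. Day 3 levels were 21.2, 20.4, 21.6 and 20.97 CPM and 28.5, 30.0, 24.2 and 29.8 CPM. The cKO libraries lay above all control libraries on both days, by log2 fold changes of 0.26 (SE 0.056, adjusted p = 0.00262) and 0.43 (SE 0.087, adjusted p = 0.00372). Slc22a5, the carnitine importer of the plasma membrane, was called at day 3 only (0.24 (SE 0.085, adjusted p = 0.0468)), a call kept in 1 of 8 fits with 1 library left out (without cKO replicate 4) and lost in the other 7 and without the expression filter, with an adjusted p of up to 0.132. Cpt2, which turns acylcarnitine back into acyl-CoA, and Crat, which handles short chains, were not called in any genotype comparison: their means lay between 18.2 and 27.6 CPM in the 4 culture groups.

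**Figure D4:**
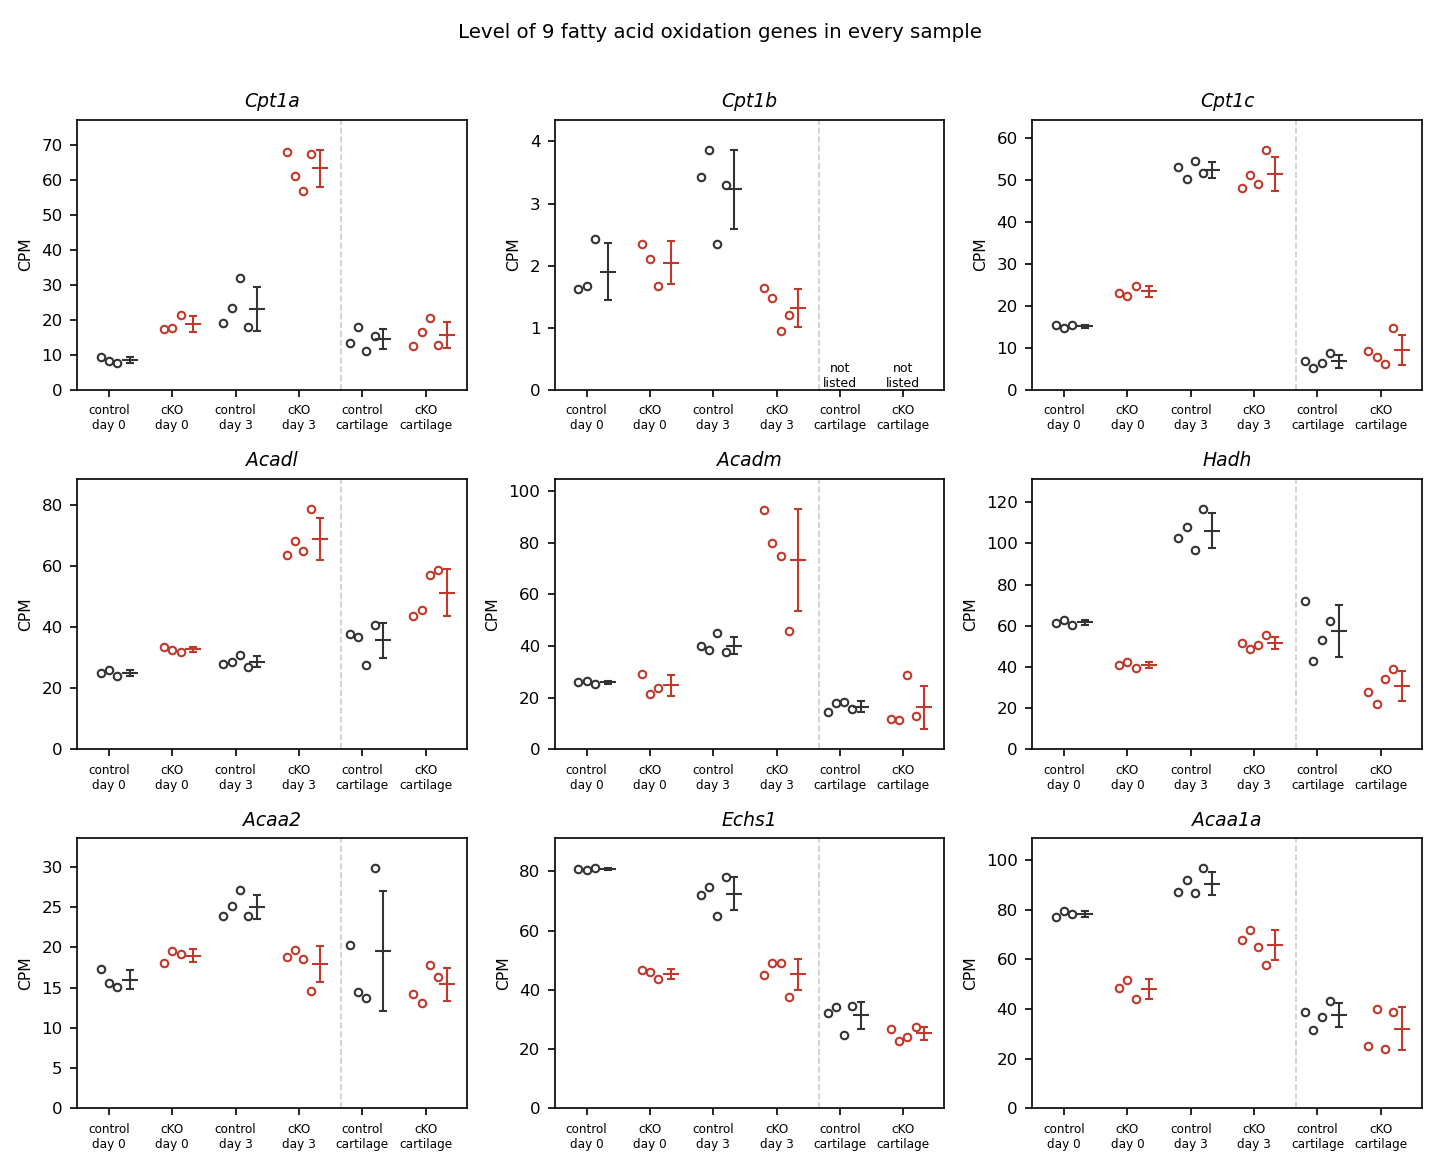
CPM (y axes, each from 0) of 9 fatty acid oxidation genes in every sample, control in black and cKO in red, with the mean and SD to the right of each group. Culture values share 1 scale and cartilage values, right of the dashed line, have their own, so levels are not compared across that line. Cpt1a and Acadl are highest in cKO cultures of day 3, and Hadh is lower in cKO in all 3 settings.

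Acyl-CoA dehydrogenases take the first step of each turn, and here some members were higher in cKO cultures while others were lower. Of 8, 3 were higher and 3 lower at day 0, and 4 were higher and 2 lower at day 3. Over all genes, 33.0% were higher and 31.6% lower at day 0, and 25.5% and 22.6% at day 3. Acadl, for long chains, measured 24.8, 25.9 and 24.1 CPM in control and 33.5, 32.5 and 31.9 CPM in cKO cultures at day 0. At day 3 Acadl measured 27.9, 28.6, 30.9 and 26.8 CPM in control and 63.6, 68.2, 65.0 and 78.6 CPM in cKO cultures. Both days were without overlap, and the excess grew from 1.31-fold to 2.44-fold, with log2 values of 0.39 (SE 0.047, adjusted p = 8.59e-05) and 1.29 (SE 0.093, adjusted p = 2.53e-05) and an interaction of 0.88 (SE 0.11, adjusted p = 2.60e-04). Acadl rose with time by 1.08 (SE 0.076) in cKO cultures and by 0.20 (SE 0.075) in control cultures. The rise in control cultures kept its call in 3 of 14 fits with 1 library left out (without control replicate 1 or 4 or cKO replicate 4 of day 3) and lost it in the other 11 and without the expression filter, with an adjusted p of up to 0.137. In cartilage Acadl stood at 37.5, 36.7, 27.5 and 40.7 CPM in control and 43.7, 45.5, 57.1 and 58.6 CPM in cKO samples. There all 4 cKO samples lay above all 4 control samples, but the log2 difference of 0.50 (SE 0.17) was not called (adjusted p = 0.0905).

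Acadm, for medium chains, was called at day 3 only. It measured 26.1, 26.3 and 25.2 CPM in control and 29.3, 21.2 and 23.6 CPM in cKO cultures at day 0, and the genotypes overlapped. At day 3 the levels were 39.8, 38.3, 45.1 and 37.5 CPM and 92.7, 80.2, 74.9 and 45.8 CPM, where 45.8 belongs to cKO replicate 4 and still exceeded every control library. The log2 fold change was -0.07 (SE 0.10, adjusted p = 0.564) at day 0 and 0.88 (SE 0.19, adjusted p = 0.00475) at day 3, and 1.04 (adjusted p = 1.92e-05) at day 3 without replicate 4. Its rise with time was 0.64 (SE 0.19) in control and 1.57 (SE 0.19) in cKO cultures. The interaction of 0.94 (SE 0.26, adjusted p = 0.0265) was lost without any 1 of control replicates 1 to 3 or cKO replicates 2 and 3 of day 0 or control replicate 2 of day 3, with an adjusted p of up to 0.0748, and was 1.11 (adjusted p = 1.5e-04) without cKO replicate 4 of day 3.

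Acads, for short chains, measured 13.6, 12.8 and 13.6 CPM in control and 17.4, 15.9 and 16.8 CPM in cKO cultures at day 0. Its day 3 levels were 17.8, 17.8, 18.4 and 16.8 CPM and 21.5, 24.9, 24.7 and 23.1 CPM. The cKO libraries were above the control libraries on both days, by 0.33 (SE 0.060, adjusted p = 0.00115) and 0.43 (SE 0.077, adjusted p = 0.00218). Acadvl, for very long chains, had 67.3, 64.5 and 64.9 CPM in control and 72.6, 73.3 and 68.3 CPM in cKO cultures at day 0. The day 3 levels of Acadvl were 85.2, 76.3, 83.9 and 78.5 CPM and 96.4, 98.2, 85.4 and 88.7 CPM. These groups did not overlap, but the differences were small (0.12 (SE 0.039, adjusted p = 0.0245) and 0.20 (SE 0.068, adjusted p = 0.0372)). The day 0 call of Acadvl was lost without control replicate 2 or 3 or cKO replicate 1 or 2, and the day 3 call without control replicate 2 or 4 or cKO replicate 1 or 2, with an adjusted p of up to 0.112 and 0.12, and both were lost without the expression filter. Acadvl had 0 to 2 whole-number counts in the cartilage libraries, while the authors' estimated counts gave 31.9 ± 6.41 CPM in control and 29.6 ± 7.29 CPM in cKO cartilage (SD, n = 4). Its exons share 42.9% of their bases with Dvl2 on the opposite strand, so no cartilage level is drawn from the whole-number table.

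Acad10 and Acad11, less studied members of the family, were lower in cKO. Acad10 measured 4.48, 4.78 and 4.53 CPM in control and 3.20, 3.40 and 2.79 CPM in cKO cultures at day 0. At day 3 Acad10 measured 5.76, 7.38, 6.85 and 7.78 CPM and 3.99, 4.15, 5.11 and 3.92 CPM. Acad11 measured 23.6, 22.3 and 23.1 and 17.2, 17.4 and 14.3 CPM at day 0, control first, and 27.9, 33.8, 35.9 and 33.3 and 21.4, 24.7, 24.5 and 27.5 CPM at day 3. Neither gene showed overlap on either day, and the log2 fold changes were -0.56 (SE 0.11) and -0.68 (SE 0.15) for Acad10 and -0.50 (SE 0.076) and -0.40 (SE 0.11) for Acad11. Both rose with time in each genotype, by 0.46 to 0.60 on the log2 scale. Acadsb, which acts on branched short chains from isoleucine, was lower at day 0 (-0.59 (SE 0.041, adjusted p = 2.40e-06)) and not called at day 3 (-0.20 (SE 0.074, adjusted p = 0.057)), and its interaction was 0.38 (SE 0.090, adjusted p = 0.0139).

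Acad9, which also helps to assemble complex I, was the 1 dehydrogenase that fell with time. Its control cultures measured 43.7, 43.3 and 40.7 CPM at day 0 and 32.6, 30.5, 32.2 and 35.1 CPM at day 3. The cKO cultures measured 44.8, 44.7 and 44.1 CPM and 34.7, 35.4, 32.0 and 30.6 CPM. All day 3 libraries lay below all day 0 libraries in each genotype, with log2 changes of -0.39 (SE 0.063, adjusted p = 1.88e-04) and -0.42 (SE 0.063, adjusted p = 7.81e-05). No genotype difference was called (0.06 at day 0 and 0.04 at day 3).

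For the later steps of the cycle, 1 of 5 members was higher and 4 were lower in cKO at day 0, and 3 of 5 were lower at day 3. Over all genes, 31.6% were lower at day 0 and 22.6% at day 3. Hadh, the 3-hydroxyacyl-CoA dehydrogenase for short and medium chains, was the 1 member called in the same direction in all 3 settings. It measured 61.4, 63.0 and 60.4 CPM in control and 40.7, 42.4 and 39.2 CPM in cKO cultures at day 0. At day 3 Hadh measured 103, 108, 96.8 and 117 CPM in control and 51.6, 48.9, 50.6 and 55.2 CPM in cKO cultures. In cartilage its levels were 72.0, 42.7, 53.2 and 62.3 CPM in control and 27.7, 21.9, 33.9 and 38.8 CPM in cKO samples. The genotypes were apart without overlap in each setting, and the falls were 1.51-fold, 2.03-fold and 1.9-fold. The log2 fold changes were -0.60 (SE 0.043, adjusted p = 2.83e-06) at day 0, -1.02 (SE 0.079, adjusted p = 3.39e-05) at day 3 and -0.93 (SE 0.20, adjusted p = 0.00917) in cartilage.

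Hadh rose with time by 0.79 (SE 0.067) in control cultures and by 0.34 (SE 0.066) in cKO cultures, with an interaction of -0.45 (SE 0.093, adjusted p = 0.00656). The cartilage call of Hadh held in every fit with 1 library left out and with estimated counts, which gave 62.8, 38.8, 46.9 and 51.6 CPM in control and 24.4, 25.4, 28.3 and 32.0 CPM in cKO cartilage. In cartilage all 4 control libraries were in 1 sequencing pool and all 4 cKO libraries in another, so pool and genotype cannot be told apart there.

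Echs1, the short-chain enoyl-CoA hydratase, measured 80.7, 80.5 and 81.1 CPM in control and 46.6, 46.0 and 43.6 CPM in cKO cultures at day 0. At day 3 Echs1 measured 71.9, 74.8, 65.0 and 78.1 CPM and 44.9, 48.9, 49.2 and 37.7 CPM. The cKO level was far below the range of the controls on both days, 1.78-fold and 1.59-fold lower, with log2 fold changes of -0.83 (SE 0.037, adjusted p = 1.94e-07) and -0.67 (SE 0.093, adjusted p = 5.96e-04). Time changed it in neither genotype by call (-0.16 in control, -0.01 in cKO), though the control value was called without cKO replicate 4 of day 3 (adjusted p = 0.0312). In cartilage the log2 difference was -0.32 (SE 0.18), with an adjusted p of 0.318. This rests on whole-number counts, which gave Echs1 a control mean of 31.4 CPM, against 71.1 CPM by estimated counts.

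Acaa2, the mitochondrial thiolase that releases acetyl-CoA, reversed in the other direction from Acsl3. Its levels were 17.4, 15.6 and 15.1 CPM in control and 18.1, 19.6 and 19.2 CPM in cKO cultures at day 0. At day 3 they were 23.9, 25.2, 27.1 and 23.9 CPM in control and 18.8, 19.6, 18.6 and 14.6 CPM in cKO cultures. Every cKO library was above the controls at day 0 and below them at day 3, with log2 fold changes of 0.24 (SE 0.067, adjusted p = 0.0111) and -0.47 (SE 0.10, adjusted p = 0.005) and an interaction of -0.72 (SE 0.14, adjusted p = 0.0037). Control cultures gained 0.64 (SE 0.097) with time and cKO cultures moved by -0.08 (SE 0.096), which was not called. The day 0 call was lost without control replicate 2 or 3 of that day (adjusted p up to 0.0551).

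Hadha and Hadhb, which together form the trifunctional protein for long chains, were both slightly lower at day 0 (-0.10 (SE 0.029) and -0.17 (SE 0.035)) and not called at day 3 (-0.00 (SE 0.062) and 0.12 (SE 0.070)). Hadhb had a called interaction (0.27 (SE 0.079, adjusted p = 0.0362)), kept in 3 of 14 fits with 1 library left out (without control replicate 1 or 4 or cKO replicate 4 of day 3) and lost in the other 11 and without the expression filter, with an adjusted p of up to 0.099. Mean levels over the 4 culture groups were 132 to 143 CPM for Hadha and 65.5 to 74.5 CPM for Hadhb. Hadh and Echs1, which serve shorter chains, were lower by more on both days.

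Enzymes that prepare unsaturated fatty acids for the cycle were lower at day 0 in all 3 cases, and 1 of 3 was lower at day 3. Over all genes, these shares were 31.6% and 22.6%. Eci1, an enoyl-CoA isomerase, measured 19.3, 19.6 and 19.2 CPM in control and 16.1, 16.5 and 14.8 CPM in cKO cultures at day 0. At day 3 Eci1 measured 19.5, 22.6, 19.2 and 23.2 CPM and 16.6, 18.0, 16.6 and 15.9 CPM. The groups were apart on both days, with log2 fold changes of -0.30 (SE 0.057, adjusted p = 0.00147) and -0.32 (SE 0.090, adjusted p = 0.0191). The day 3 call of Eci1 was lost without control replicate 2 or 4 (adjusted p up to 0.0547). Eci2, a second isomerase, was lower at day 0 (-0.41 (SE 0.045)), and its day 3 cKO libraries stood at 71.8, 67.3, 67.1 and 43.0 CPM, with replicate 4 far below the rest. Decr1, the dienoyl-CoA reductase, differed by -0.16 (SE 0.051, adjusted p = 0.0225) at day 0, a call lost without control replicate 1 or 2 or cKO replicate 3 (adjusted p up to 0.0578).

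The electron transfer flavoprotein passes electrons from the dehydrogenases to the flavoprotein's own oxidoreductase, encoded by Etfdh. Etfb, its β subunit, measured 60.0, 58.2 and 60.6 CPM in control and 53.1, 51.8 and 46.5 CPM in cKO cultures at day 0. At day 3 Etfb measured 71.4, 63.8, 58.3 and 71.3 CPM and 48.7, 60.1, 50.1 and 41.0 CPM. It was lower on both days (-0.24 (SE 0.053, adjusted p = 0.00297) and -0.39 (SE 0.11, adjusted p = 0.02)), with 1 cKO library inside the control range at day 3, and the day 3 call was lost without control replicate 4 (adjusted p = 0.0536). Etfb shares 53% of its exon bases with Gm45233 on the same strand. Etfdh measured 43.6, 42.5 and 44.0 and 45.1, 48.2 and 48.0 CPM at day 0, control first, and 35.6, 38.6, 38.4 and 38.0 and 46.2, 47.0, 45.1 and 44.6 CPM at day 3. Etfdh was higher in cKO, clearly apart at day 3 (0.29 (SE 0.057, adjusted p = 0.00303)) and narrowly at day 0 (0.12 (SE 0.042, adjusted p = 0.0355)), where the call was kept when cKO replicate 1 was left out and lost when any other library was (adjusted p up to 0.138), by DESeq2 and without the expression filter.

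Etfa, the α subunit, was lower in cKO cultures of day 0 and higher in cKO cartilage. At day 0 it measured 102, 96.9 and 100 CPM in control and 93.0, 93.9 and 87.1 CPM in cKO cultures, a log2 fold change of -0.13 (SE 0.038, adjusted p = 0.0134) that was lost without control replicate 1 (adjusted p = 0.0523). Day 3 gave 89.4, 86.3, 80.2 and 85.9 CPM and 79.5, 88.8, 87.8 and 56.7 CPM with overlap (-0.12 (SE 0.13, adjusted p = 0.481)). In cartilage Etfa stood at 62.3, 58.9, 55.0 and 59.7 CPM in control and 76.4, 91.8, 77.6 and 81.8 CPM in cKO samples, higher without overlap (0.47 (SE 0.13, adjusted p = 0.0445)). That call was lost with DESeq2 (adjusted p = 0.198), without the expression filter (adjusted p = 0.164), in each of the 8 fits with 1 library left out (adjusted p 0.0594 to 0.124) and with estimated counts, where the log2 difference was 0.33 (adjusted p = 0.158).

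Of the 3 peroxisomal members, which shorten very long and branched chains, Acaa1a and Ehhadh were lower in cKO on both days. Acox3, an oxidase for branched chains, was not called in either (0.11 (SE 0.085, adjusted p = 0.266) and 0.38 (SE 0.17, adjusted p = 0.0956)). Acaa1a, the peroxisomal thiolase, measured 77.2, 79.5 and 78.2 CPM in control and 48.5, 51.9 and 44.0 CPM in cKO cultures at day 0. At day 3 Acaa1a measured 87.1, 91.9, 86.7 and 96.8 CPM and 68.0, 72.0, 65.1 and 57.9 CPM. All cKO libraries lay below all control libraries on both days, with log2 fold changes of -0.70 (SE 0.057, adjusted p = 5.75e-06) and -0.45 (SE 0.073, adjusted p = 0.00135). Reads of Acaa1a and its close copy Acaa1b may have been split by the authors' counting. Ehhadh, the peroxisomal bifunctional enzyme, measured 4.502, 4.78 and 4.11 CPM in control and 3.68, 3.49 and 2.81 CPM in cKO cultures at day 0. At day 3 Ehhadh measured 6.99, 5.97, 5.53 and 6.73 CPM and 3.71, 3.16, 3.653 and 4.04 CPM. It was lower without overlap on both days (-0.43 (SE 0.13, adjusted p = 0.0158) and -0.77 (SE 0.15, adjusted p = 0.003)), and the day 0 call was lost without control replicate 2 (adjusted p = 0.0622). Acox3 rose with time in both genotypes (0.76 (SE 0.15, adjusted p = 8.57e-04) in control and 0.996 (SE 0.15, adjusted p = 9.09e-05) in cKO).

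Ppara and Ppard encode nuclear receptors that fatty acids activate and that drive many genes of this pathway. Ppara was scarce, at 0.787, 0.592 and 0.832 CPM in control and 0.841, 0.758 and 0.795 CPM in cKO cultures at day 0. At day 3 Ppara was at 0.548, 1.25, 1.501 and 0.527 CPM and 1.01, 0.741, 1.36 and 0.692 CPM, and it was at the floor in all 8 cartilage libraries. The genotypes overlapped on both days, with log2 differences of 0.11 (SE 0.22) and -0.01 (SE 0.41). Ppard was the more abundant receptor per kilobase of exon, at 36.3, 37.7 and 38.5 CPM in control and 45.8, 44.6 and 46.5 CPM in cKO cultures at day 0. At day 3 Ppard measured 44.5, 44.6, 44.4 and 41.5 CPM and 38.6, 41.4, 44.2 and 42.0 CPM. It was higher in cKO without overlap at day 0 (0.28 (SE 0.041, adjusted p = 2.75e-04)) and overlapped at day 3 (-0.06 (SE 0.066, adjusted p = 0.495)), with an interaction of -0.36 (SE 0.076, adjusted p = 0.00752). Control cultures gained Ppard with time (0.22 (SE 0.054, adjusted p = 0.00347)), while the small fall in cKO cultures (-0.14 (SE 0.054, adjusted p = 0.0429)) was lost with RLE scaling, without the expression filter and in 5 of 14 fits with 1 library left out: any day 0 cKO library, control replicate 2 or cKO replicate 1 of day 3 (adjusted p up to 0.119).

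Further genes of fatty acid use were taken from 5 lists: uptake and binding, other mitochondrial steps, peroxisomal oxidation, ketone bodies, and regulators with PPAR-responsive genes. The list counts are descriptions, to be read beside the shares of all genes called at day 0 (64.5%, 33.0% higher and 31.6% lower) and day 3 (48.1%, 25.5% higher and 22.6% lower). Of the fatty acid uptake and binding genes 2 of 9 tested were higher and 4 lower at day 0, which lies near the share of all genes, and 5 were higher and 2 lower at day 3. At day 3 Cd36, a fatty acid translocase, measured 2.78 ± 1.08 CPM in cKO cultures (SD, n = 4) and was at the floor in all 4 control libraries, with no overlap. Fabp4, a fatty acid binding protein of adipocytes and macrophages, is also on the adipocyte marker list. At day 3 Fabp4 measured 1.88 ± 0.554 CPM in control and 30.5 ± 5.79 CPM in cKO cultures (SD, n = 4). It was higher in cKO by 4.05 (SE 0.24, adjusted p = 1.07e-05) on the log2 scale. Acsl6, a synthetase best known from brain, was higher on both days (1.98 (SE 0.29) and 2.34 (SE 0.26)). The transporters Slc27a6 and Slc27a3 were lower on both days, with log2 fold changes for Slc27a6 of -0.99 (SE 0.14) and -3.33 (SE 0.60) and for Slc27a3 of -0.54 (SE 0.084) and -1.51 (SE 0.40).

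Other mitochondrial steps, mainly of branched and odd chains, had 9 of 15 genes lower at day 0, and 9 were lower and 1 higher at day 3. The list's median log2 fold change was -0.27 at day 0 and -0.32 at day 3, beside 0.01 over all genes. Pccb, a subunit of propionyl-CoA carboxylase, measured 64.4 ± 1.1 CPM in control and 37.9 ± 2.79 CPM in cKO cultures of day 0 (SD, n = 3). Ivd, the isovaleryl-CoA dehydrogenase of leucine breakdown, measured 52.2 ± 3.10 CPM in control and 25.2 ± 4.45 CPM in cKO cultures of day 3 (SD, n = 4). Its log2 fold change was -1.04 (SE 0.12, adjusted p = 2.59e-04), and it was not called at day 0. Acot2, a mitochondrial thioesterase that frees fatty acids from coenzyme A, was lower on both days (-0.92 (SE 0.090) and -0.71 (SE 0.11)). The 1 gene that was higher at day 3 was the thioesterase Acot9 (0.76 (SE 0.17, adjusted p = 0.00707)).

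In peroxisomal oxidation beyond the members 1 of 17 genes was higher and 8 were lower at day 0, and 1 was higher and 7 lower at day 3, with medians of -0.11 and -0.19. The number called was below the share of all genes at day 0 and near it at day 3. Phyh, which starts the breakdown of phytanic acid, was lower in cKO cultures. Control and cKO cultures measured 120 ± 5.28 and 61.5 ± 10.6 CPM at day 0 (SD, n = 3), and 126 ± 13.8 and 38.7 ± 11.3 CPM at day 3 (SD, n = 4). Acox2 and Amacr, both of branched-chain oxidation, were lower, with log2 fold changes of -0.81 and -0.71 at day 0 and -2.02 and -0.70 at day 3. Of the ketone body genes 4 of 4 tested were lower at day 0, and 2 of 3 tested at day 3. Bdh1, the hydroxybutyrate dehydrogenase, was lower in cKO cultures. Control and cKO cultures measured 26.6 ± 1.61 and 7.94 ± 0.655 CPM at day 0 (SD, n = 3), and 21.3 ± 4.70 and 8.22 ± 1.12 CPM at day 3 (SD, n = 4).

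Among regulators and PPAR-responsive genes 8 of 14 tested were higher and 3 lower at day 0, and 7 were higher and 3 lower at day 3, where 33.0% and 25.5% of all genes were higher, with list medians of 0.24 and 0.44. Pdk4, the kinase that shuts off pyruvate dehydrogenase, measured 3.07 ± 1.12 CPM in control and 18.6 ± 8.14 CPM in cKO cultures of day 3 (SD, n = 4). It was higher in cKO by 2.62 (SE 0.37, adjusted p = 6.25e-04) on the log2 scale. Angptl4, a lipase inhibitor that PPARs induce, was higher in cKO by 1.21 (SE 0.18) at day 0 and 2.47 (SE 0.37) at day 3. Ucp2, a mitochondrial carrier, was higher in cKO by 1.56 (SE 0.20) and 1.40 (SE 0.27). Against these, Ppargc1a, the coactivator of mitochondrial oxidation, measured 7 ± 0.455 CPM in control and 0.613 ± 0.261 CPM in cKO cultures of day 3 (SD, n = 4). Its log2 fold change was -3.49 (SE 0.28, adjusted p = 3.74e-05). Acaca, the carboxylase that makes malonyl-CoA for fatty acid synthesis, was lower in cKO cultures. Control and cKO cultures measured 224 ± 3.22 and 102 ± 3.53 CPM at day 0 (SD, n = 3), and 208 ± 23.9 and 64.4 ± 12.1 CPM at day 3 (SD, n = 4). Acacb, the form near the mitochondrial surface, was lower at day 3 (-1.25 (SE 0.22, adjusted p = 0.00209)). In cartilage 0 of the 34 list genes tested were called by edgeR, with 7 at an unadjusted p under 0.05, and 0 by DESeq2. The share of all cartilage genes under that unadjusted p was not computed, so the 7 are not read as a result.

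Levels between genes were compared per kilobase of exon, in cultures only, since the cartilage libraries read the 3′ end. The length was that of all annotated exons of a gene merged, not that of 1 transcript. It was 1.16 kb for Etfb and 8.73 kb for Hadha, so the order below depends on the annotation. In control cultures of day 0, Etfa (54.4 ± 1.53 CPM per kb, SD, n = 3) and Etfb (51.2 ± 1.08) were the highest of the 35 members, followed by Acadvl (24.4 ± 0.571). Cpt1a was at 1.1 ± 0.116 CPM per kb, the 31st of 35, and Ppara the last at 0.192 ± 0.0333. In cKO cultures of day 3 Cpt1a was at 8.29 ± 0.703 CPM per kb (SD, n = 4), the 18th of 35, and Acadl moved from the 7th place in day 0 control cultures to the 3rd. Hadh went the other way, from the 4th place in control cultures of day 3 to the 16th in cKO cultures of that day. Etfa and Etfb kept the top 2 places in all 4 culture groups, and Ppara the last.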

How the data were processed

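RNA sequencing measured 22 samples in 6 groups: 14 chondrocyte cultures and 8 cartilage samples. The culture libraries were made with a directional kit, per the labels' protocols, and their tables hold estimated counts per gene that the authors deposited, with no normalization; the program that made them is not given in the sources used here. The cartilage libraries read the 3′ ends of transcripts with molecular identifiers (BRB-seq), and the authors deposited both whole-number counts, used here as the main values, and estimated counts, used as an alternative. A deposited list of sequencing pools was read as text. GRCm38, UMI-tools 1.1.1, Trim Galore 0.6.7, HISAT2 2.2.1, featureCounts 2.0.1 and DESeq2 1.34.0 are named in the submitters' processing notes, without their roles.

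Estimated counts were rounded to whole numbers. Of the 34866 culture identifiers, 34652 were matched to GENCODE M21. Counts were scaled by TMM, filtered with filterByExpr (minimum count 10, minimum total 15) and tested with edgeR 4.0.16 (quasi-likelihood, R 4.3.3, limma 3.58.1), with Benjamini-Hochberg adjustment over all genes tested and a threshold of 0.05. Every adjusted p here is from that test unless another is named. The genotypes were compared in separate fits for day 0, day 3 and cartilage (with sex as a covariate), and the changes with time and the interaction in 1 fit of all 14 cultures. Culture CPM share 1 TMM scale, and cartilage CPM have their own. A standard error is the log2 fold change divided by the root of F. The code was tested on simulated data. DESeq2 1.42.0, RLE size factors, no expression filter, a replicate block, a common fit of the cultures, no sex covariate, estimated counts and leaving out each library were tried.

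The members and the pathway and marker lists were chosen with earlier results of these data known, so a pattern seen in them is not independent support. Values per sample are given for members called in at least 2 genotype comparisons, those with the largest changes among called members (up to 4 a direction), called interactions (up to 6), the Cpt1 isoforms, Ppara and Ppard. Eci2 falls outside that rule and was chosen after its values were seen. Pathway genes are named from the largest called changes of each list. Promoter windows are from RefSeq (GRCm38.p6).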

Additional observations from a re-analysis of the deposited data

Results flagged for a closer look

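Of 118 groups of 4 samples (1 member in 1 group each), 10 had 1 sample far from the other 3, meaning that the gap to its nearest neighbour took up more of the group's range than Dixon's critical value. Chance alone flags about 1 in 20 groups, and 4 of the 10 samples were replicate 4 of the day 3 cKO cultures. In that replicate Hadha stood at 122 CPM (nearest other 134), Hadhb at 76.3 (68.8), Eci2 at 43.0 (67.1) and Acsl1 at 17.8 (28.8). In control cultures of day 3, Slc22a5 stood at 13.9 CPM in replicate 1 (nearest other 12.8), Acsl5 at 34.7 in replicate 1 (29.4) and Ppard at 41.5 in replicate 4 (44.4). In cKO cartilage, Acadm stood at 28.6 CPM in replicate 3 (nearest other 12.9), Eci2 at 31.1 in replicate 1 (47.4) and Decr1 at 23.3 in replicate 4 (25.9).

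For 11 members the genotype effect differed between day 0 and day 3 by edgeR's interaction test. The log2 effect at day 3 minus that at day 0 was 1.04 for Acsl3 (adjusted p = 0.00104), 0.94 for Acadm (0.0265), 0.88 for Acadl (2.60e-04), 0.63 for Acsl4 (0.0258), 0.38 for Acadsb (0.0139) and 0.27 for Hadhb (0.0362). It was -1.40 for Cpt1b (adjusted p = 0.0146), -0.72 for Acaa2 (0.0037), -0.66 for Cpt1c (6.56e-04), -0.45 for Hadh (0.00656) and -0.36 for Ppard (0.00752). The calls of Acadm, Acsl4 and Hadhb were lost in 6, 7 and 11 of 14 fits that left out 1 library, and the others were kept in all 14.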

How the results depend on the processing

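No member changed direction with a call under any alternative run. The cartilage count was 1 in place of 2 (Hadh kept, Etfa lost) without the expression filter, with the replicate block, with DESeq2, with estimated counts and in all 8 fits that left out 1 library (1 to 1). The other counts stayed within 1.5 times: leaving out 1 library gave 21 to 26 members at day 0, 18 to 23 at day 3, 23 to 31 for the change in control cultures, 18 to 22 for that in cKO cultures and 8 to 14 for the interaction. The common fit of 14 cultures gave 18 at day 0 and 24 at day 3. Replicate numbers gave no clear pairing: deviations of same-numbered samples correlated at -0.115 to 0.265, and some but not all samples correlated best with their own number. With so few libraries a group this check cannot exclude pairing. With the replicate block the counts were 25 at day 0, 18 at day 3, 25 and 20 for the changes in control and cKO cultures and 11 for the interaction. Cartilage libraries held 1100198 to 1888896 counts, and 11 of 35 members were not tested there (Cpt1b is not listed, the others failed the expression filter). With estimated counts 31 members were tested. Mean control CPM by whole-number and estimated counts was 3.36 and 35.2 for Acad9, 6.76 and 20.1 for Cpt1c, and 13.5 and 40.4 for Hadhb. For Hadha these were closer, at 59.7 and 54.7. A failed filter is therefore not in itself a sign of a scarce transcript. The cultures' libraries of the 2 days came from separate tables of different depth.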
